A study of Mus musculus with 8 samples.

Results

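Integrins are the cell surface receptors by which cells hold on to the matrix around them. Of the 10 integrin subunit genes named for this set (Itgb1, Itgb3, Itgb5, Itga1, Itga3, Itga5, Itga6, Itga7, Itga11 and Itgav), 7 had at least 1 entry in the table of cluster markers analysed here, which holds 3903 gene symbols in all. The rule for membership is the gene's name, applied with earlier results of these data known. Itgb3, Itga3 and Itga7 had no entry in any cluster, which gives no level for them, because the table lists a gene for a cluster only where it passed minimums of detection and fold change.

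The table comes from a single-cell RNA study of cultured preadipocytes from the inguinal white fat of C57BL/6 mice aged 8 to 12 weeks. There were 4 groups of 2 samples, wild-type (WT) cells and cells carrying Hmgn1-/- and Hmgn2-/- (double knockout, DKO), each at day 0, before browning was induced, and at day 6 of induced browning. HMGN1 and HMGN2 are nucleosome-binding proteins, and the DKO mice lack both throughout the body, not in fat alone. All cells were grown on collagen-coated plates and released with trypsin before capture. Those taken at day 6 had been induced with insulin, dexamethasone, IBMX, T3 and rosiglitazone. By the study's methods this mixture was given for 4 days and then replaced by a medium with insulin and T3 only. The labels do not say how many mice gave each culture.

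The cells of all 8 samples were pooled in the table and divided by the authors into 12 clusters, numbered 0 to 11, each compared with all other cells. No value belongs to a sample, a genotype or a day, so nothing below has a replicate, no test was made, and loss of Hmgn1 and Hmgn2 could not be checked per sample. The number of cells and the read depth behind each value are unknown, so no interval is given and neighbouring values in an order cannot be said to differ. The clusters were formed from the expression of the same cells, so differences between clusters are a description. Itgb1 was also among the genes by which the study named its preadipocytes, and its pattern is not independent evidence of that name.

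An integrin is a pair of 1 alpha and 1 beta subunit, both spanning the membrane. The alpha subunit largely sets which ligand is held. Itga1 and Itga11 bind collagens, Itga3, Itga6 and Itga7 bind laminins of the basement membrane, and Itga5 and Itgav bind proteins with the RGD motif such as fibronectin and vitronectin. Itgb1 pairs with all 7 of these alpha subunits, whereas Itgb3 and Itgb5 pair with Itgav. Inside the cell the beta subunit tail recruits talin and kindlin, which link the receptor to actin. Fibroblast-like preadipocytes spread on a fibronectin and collagen matrix, and adipocytes are rounder and enclosed by a basement membrane rich in laminin and type IV collagen.

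The promoters of 3 members are shown because their genes differed in how their fold changes ran over the clusters. By the log2 fold change, Itgb1 and Itgb5 pointed the same way in all 6 clusters that list both, and Itga5 pointed against Itgb1 in 3 of the 4 clusters that list both. By detection this was not so, since Itgb1 and Itgb5 pointed the same way in 3 of the 6, and Itgb1 and Itga5 in 3 of the 4. For clusters other than 4, the cells outside include cluster 4, where few cells held Itgb1. The sequences are from RefSeq on GRCm38.p6, the mm10 build, and run from 250 bases before to 50 bases after the start of the gene. Capitals mark GGGCGG, the GC box, or GGAATG, a core read by TEAD factors, on either strand, so that CCGCCC is a GC box on the other strand. Itgb1 lies at chr8:128685404-128685703 on the plus strand, Itgb5 at chr16:33829415-33829714 on the plus strand and Itga5 at chr15:103366742-103367041 on the minus strand.
Itgb1: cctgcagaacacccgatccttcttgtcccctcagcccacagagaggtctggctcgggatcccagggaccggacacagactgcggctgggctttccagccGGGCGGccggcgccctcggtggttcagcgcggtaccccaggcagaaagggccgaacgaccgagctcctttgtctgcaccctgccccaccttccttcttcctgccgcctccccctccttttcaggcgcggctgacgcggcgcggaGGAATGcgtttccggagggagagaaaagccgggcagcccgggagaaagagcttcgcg
Itgb5: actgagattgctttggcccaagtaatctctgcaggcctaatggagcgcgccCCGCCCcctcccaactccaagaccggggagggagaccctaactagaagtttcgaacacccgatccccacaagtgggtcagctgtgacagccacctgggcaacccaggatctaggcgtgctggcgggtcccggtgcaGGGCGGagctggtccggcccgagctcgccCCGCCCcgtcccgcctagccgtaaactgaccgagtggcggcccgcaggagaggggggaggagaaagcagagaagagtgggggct
Itga5: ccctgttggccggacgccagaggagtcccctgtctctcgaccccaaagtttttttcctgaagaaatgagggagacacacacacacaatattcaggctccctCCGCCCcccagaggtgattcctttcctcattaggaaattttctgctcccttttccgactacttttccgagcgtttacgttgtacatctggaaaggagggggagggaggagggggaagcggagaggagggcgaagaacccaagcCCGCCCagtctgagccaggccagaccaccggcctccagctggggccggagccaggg

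Promoters were found for 6 of the 7 members with an entry. GGGCGG occurred in 4 of the 6, with 3 copies in Itgb5, 2 in Itga5 and 1 each in Itgb1 and Itgav, against 35.7% of the 32851 mouse promoters of the same length. GGAATG occurred in Itgb1 alone among the 6, against 14.7% of all promoters. TGANTCA, the site of the AP-1 factors that the study followed in chromatin, occurred in 0 of the 6, against 7.81% of all promoters. These 3 motifs do not overlap one another in the printed windows, and a match is a description of letters, not of binding. The GC content of the 6 promoters was 56.7% to 68.0%, against a median of 52.7% over all promoters.

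The 7 genes had 35 entries, of 84 possible. Detection, the percent of cells with at least 1 transcript of the gene counted, is given for the cells of a cluster and for the cells outside it, as deposited. The log2 fold change is the authors' value of mean normalized expression inside the cluster against all other cells. By it, 13 of the 35 entries (37.1%) were higher in their cluster and 22 were lower, while 47.1% of all 13337 entries in the table were higher. The median log2 fold change was -0.34 over the integrin entries and -0.26 over all entries. A change of 0.5 or more in either direction on the log2 scale was reached by 13 integrin entries (37.1%), against 38.1% of all entries, so the integrin entries were about as large as those of the table.

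**Figure D1:**
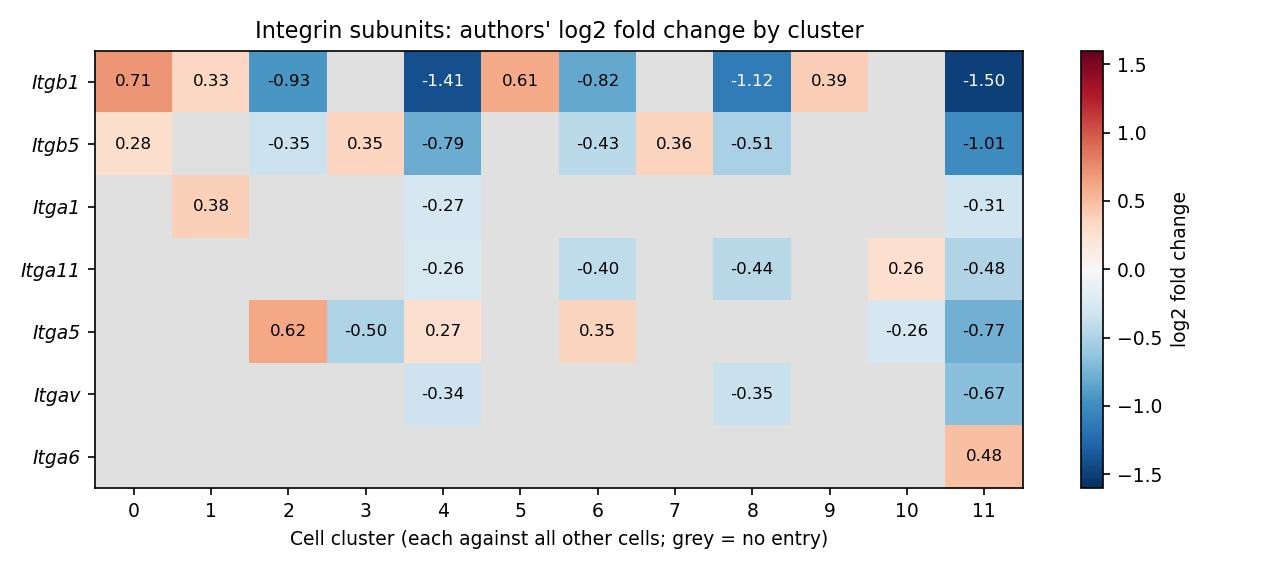
The authors' log2 fold change of each integrin subunit (rows) in each cluster against all other cells (columns), red where higher in the cluster, blue where lower and grey where the table has no entry. Cluster 11 holds an entry for all 7 genes, and 6 of them are lower there, with Itga6 alone higher at 0.48.

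Itgb1 (chromosome 8, 128685654 to 128733200, plus strand, mm10) encodes the shared beta1 subunit and had the most entries, 9. Its detection in clusters 0, 1, 5 and 9 was 98.8%, 98.6%, 99.6% and 99.0%, in that order, against 84.5% to 85.8% of the cells outside each. The log2 fold changes in these 4 clusters were 0.71, 0.33, 0.61 and 0.39. Clusters 0 and 1 are led by Thbs1 and Tagln and by Cxcl14 and Mmp3, and clusters 5 and 9 by genes of the cell cycle, Hist1h1b and Pclaf and Ube2c and Cenpf. Cluster 6, which is also led by genes of the cell cycle, Hist1h1b and Top2a, listed Itgb1 as lower, so clusters with such genes at their head went both ways.

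In the other 5 clusters with an entry Itgb1 was lower, with log2 fold changes, for clusters 2, 6, 8, 4 and 11 in turn, of -0.93, -0.82, -1.12, -1.41 and -1.50. In 4 of these the gene was nevertheless found in most cells. Its detection in clusters 2, 6, 8 and 11 was 89.6%, 96.3%, 84.6% and 87.8%, against 86.2%, 85.8%, 86.7% and 86.6% of the cells outside. Detection and mean therefore pointed apart in clusters 2, 6 and 11. There more cells held the transcript than outside, by 3.4, 10.5 and 1.2 percentage points, at a lower mean. Cluster 4 differed, since only 19.6% of its cells held the transcript against 93.7% of the others. Its cells are among those outside the other clusters and lower the detection there. Clusters 2 and 11 lay below the 93.7% found outside cluster 4, so their direction by detection depends on the cells compared.

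The levels can be put on 1 scale by dividing each cluster's mean by the mean over all cells, both with the pseudocount of 1 that the fold changes contain. On this scale, where 1 is the level over all cells, Itgb1 stood at 1.50, 1.46, 1.29 and 1.21 in clusters 0, 5, 9 and 1. In clusters 6, 2, 8, 4 and 11 it stood at 0.58, 0.56, 0.48, 0.40 and 0.36. No listed cluster lay between 0.58 and 1.21, but log2 fold changes below 0.25 in absolute size are not listed. Levels near 1 could thus not appear, and this gap is not evidence of a step. Clusters 3, 7 and 10, which have no entry and hold 20.3% of the cells, had a mean level of 1.12, inside the gap. Their mean detection was 87.1%, and both values were solved from the other clusters.

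Itgb5 (chromosome 16, 33829665 to 33949338, plus strand), which pairs with Itgav in a vitronectin receptor, had 8 entries. Its detection was 80.6% in cluster 0, 75.1% in cluster 3 and 74.7% in cluster 7, against 59.9%, 61.4% and 62.0% of the cells outside. The log2 fold changes there were 0.28, 0.35 and 0.36. Cluster 3 is led by Spp1 and Ccl8 and cluster 7 by Ogn and Hp, and neither lists Itgb1.

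Itgb5 was lower in the same 5 clusters as Itgb1. In clusters 2, 6, 8, 4 and 11 its log2 fold changes were -0.35, -0.43, -0.51, -0.79 and -1.01. Unlike Itgb1, Itgb5 was found in far fewer cells of cluster 11, 19.8% against 63.5%, and of cluster 8, 44.1% against 64.0%. In cluster 6 its detection, 62.1% against 62.9%, differed by less than 1 percentage point. The beta subunits thus had 10 entries in clusters 2, 4, 6, 8 and 11, all lower by the log2 fold change, and 7 entries in the remaining clusters, all higher. Of all entries, 31.3%, 26.3%, 49.9%, 32.8% and 40.2% were higher in clusters 2, 4, 6, 8 and 11. In clusters 0, 1, 3, 5, 7 and 9, which hold the 7 higher ones, 70.0%, 61.7%, 57.8%, 72.9%, 70.0% and 77.8% were higher, so except in cluster 6, where the split was near even, the beta subunits ran the way most entries did. By detection, 7 of their 17 entries were lower. Clusters 1, 5, 9 and 10, which do not list Itgb5, had a mean detection of 74.2%, solved from the others.

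**Figure D2:**
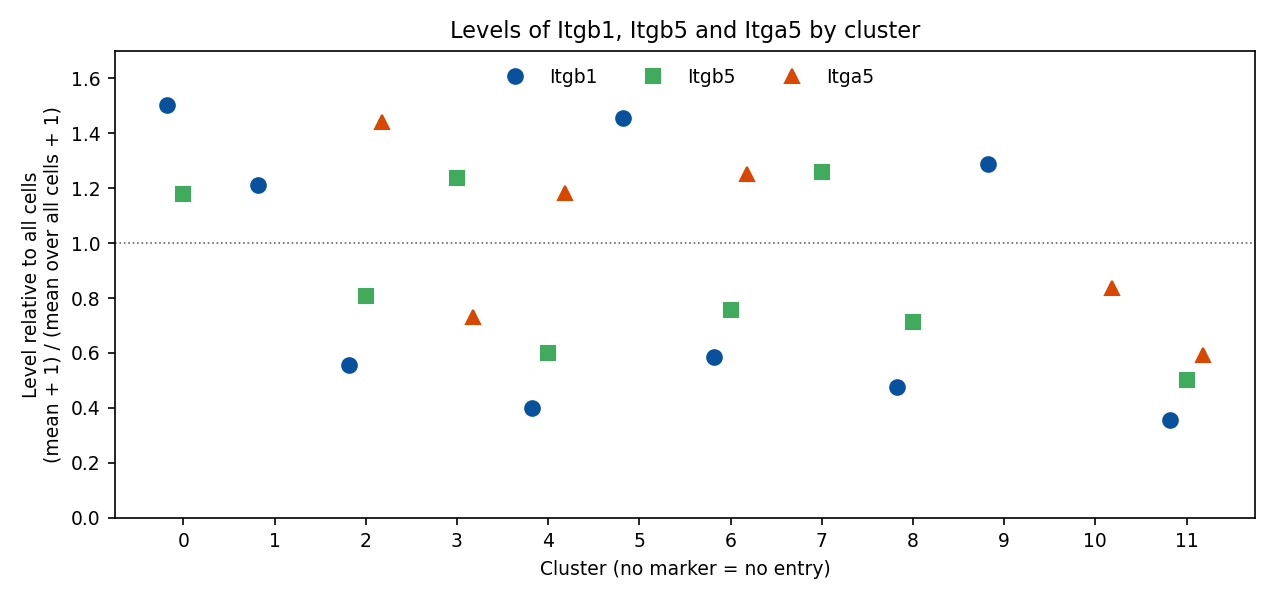
Level of Itgb1 (circles), Itgb5 (squares) and Itga5 (triangles) in each cluster relative to all cells, as the mean plus 1 over the mean of all cells plus 1, with the dotted line at the level of all cells. There are no replicates and so no error bars. In clusters 2 and 6, Itga5 lies above the line at 1.44 and 1.25, and Itgb1 below it at 0.56 and 0.58.

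Itga5 (chromosome 15, 103344286 to 103366763, minus strand) encodes the alpha subunit of the main fibronectin receptor and pairs with Itgb1 only. It had 6 entries, and its order over the clusters by fold change was not that of its partner. Its detection was 74.2% in cluster 2 against 45.8% outside, and 74.8% in cluster 6 against 47.1% outside. The log2 fold changes there were 0.62 and 0.35, in clusters where Itgb1 stood at -0.93 and -0.82. Cluster 2 is led by Ctla2a and A2m, and cluster 6 by Hist1h1b and Top2a.

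Itga5 was lower in cluster 3, at -0.50 with detection in 32.1% of the cells against 51.2%, and in cluster 11, at -0.77 with 25.7% against 49.6%. Of the 4 clusters that list both Itga5 and Itgb1, cluster 11 was the only one with both fold changes below 0. There Itgb1 was found in slightly more cells than outside, where the cells of cluster 4 are included. In cluster 4 the log2 fold change of Itga5 was 0.27 although its detection was 16.3% against 52.7%, and in cluster 10 it was -0.26 with 4.2% against 50.7%. The value in cluster 4 points down by detection and up by the mean.

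Itgav (chromosome 2, 83724397 to 83806916, plus strand), the alphav subunit of vitronectin and fibronectin receptors, had 3 entries and was higher in 0 of them. Its detection was 6.2% in cluster 4 against 56.6% outside, 36.4% in cluster 8 against 52.7% and 23.9% in cluster 11 against 52.2%. The log2 fold changes were -0.34, -0.35 and -0.67. Itgb5, its partner, was lower in the same 3 clusters. In the 9 clusters without an entry the mean detection of Itgav was 58.6%.

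Of the collagen receptors, Itga1 (chromosome 13, 114953096 to 115101964, minus strand) had 3 entries. In cluster 1 it was detected in 42.7% of cells, and outside in 19.5%, with a log2 fold change of 0.38. It was lower in cluster 4, at -0.27 with 1.1% against 25.1%, and in cluster 11, at -0.31 with 5.9% against 23.1%. Cluster 1, which is led by Cxcl14 and Mmp3, was therefore the only cluster listing Itga1 as higher. The annotation marks the Itga1 and Itga6 genes as overlapping another locus, and reads shared with such a locus were not examined.

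Itga11 (chromosome 9, 62677826 to 62783982, plus strand), the alpha subunit of a receptor for fibrillar collagen on fibroblasts, had 5 entries and was found in fewer cells in all 5. Its detection in clusters 6, 8, 10, 4 and 11 was 11.4%, 5.4%, 5.1%, 3.1% and 2.9%, against 30.1% to 32.6% outside. The log2 fold changes in clusters 6, 8, 4 and 11 were -0.40, -0.44, -0.26 and -0.48. Only in cluster 10 was it positive, at 0.26, where detection pointed the other way. The 7 clusters without an entry, which hold 72.3% of the cells, had a mean detection of 38.8%, so the cells with Itga11 lay mostly in clusters for which the table does not list it.

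Itga6 (chromosome 2, 71745616 to 71858416, plus strand), the alpha6 subunit of laminin receptors, had 1 entry, in cluster 11. There 53.1% of cells held its transcript, and 3.0% outside, with a log2 fold change of 0.48. Cluster 11 is led by Car3 and Fabp5 and is the smallest, with 1.50% of the cells. Over all cells the detection of Itga6 was 3.75%. The share of transcripts coming from free RNA in the droplets was not measured.

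**Figure D3:**
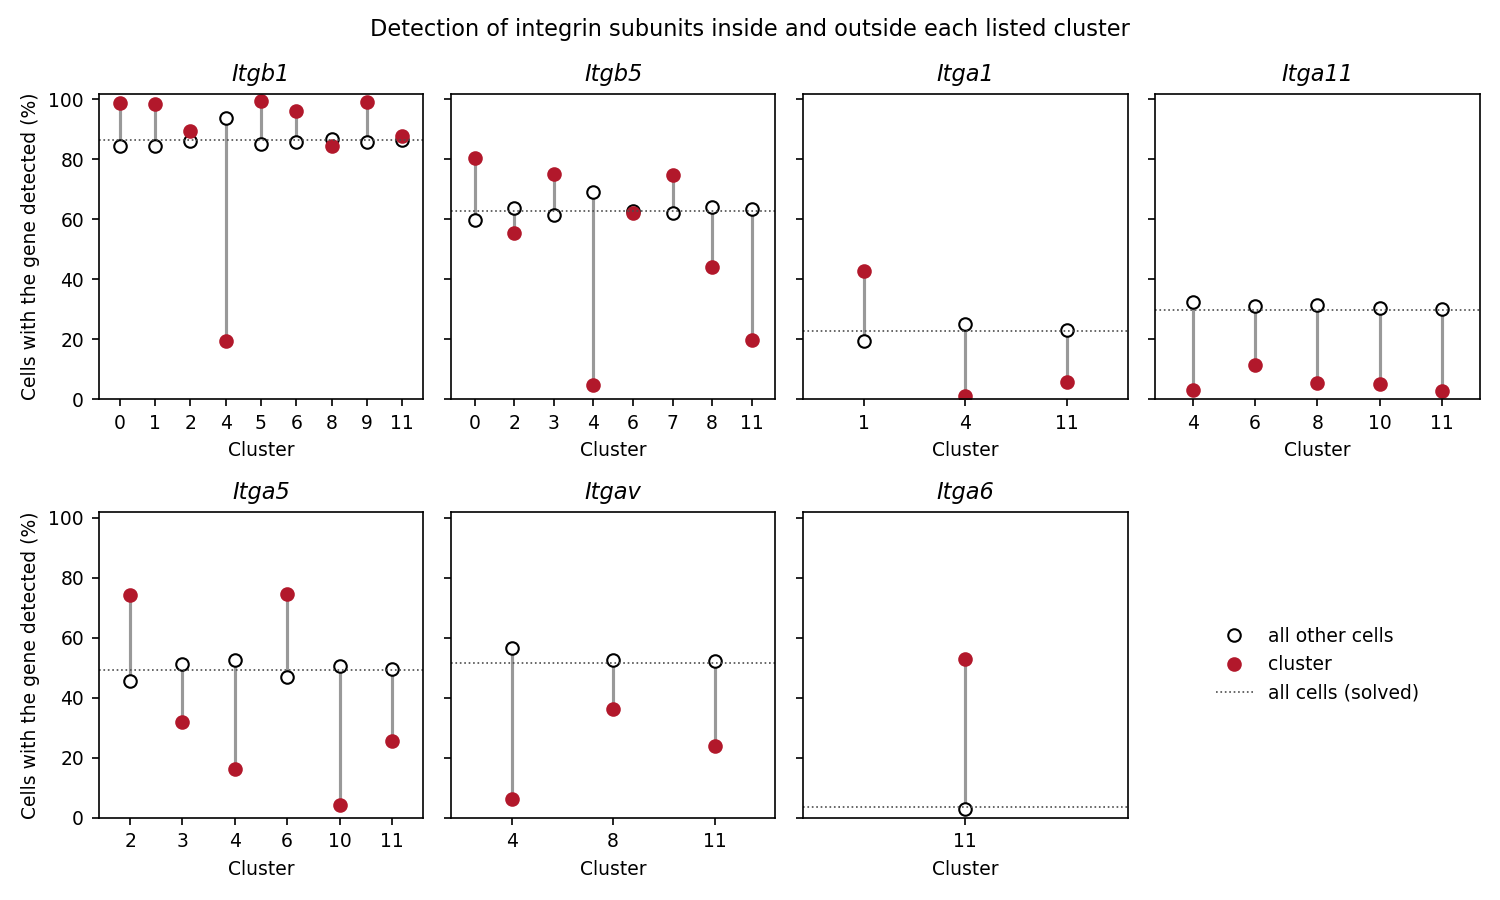
Percent of cells in which each integrin subunit was detected, for cells of the cluster (filled circles) and cells outside it (open circles), for each cluster with an entry; the dotted line is the detection over all cells solved from the table. In cluster 11, Itga6 is at 53.1% against 3.0%, while Itgb5, Itga1, Itga11, Itga5 and Itgav are at 2.9% to 25.7% and Itgb1 is at 87.8%.

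Cluster 11 thus listed all 7 members, where 63.7% of all genes in the table have an entry. Of the 7 entries, 1 was higher, against 40.2% of all entries of cluster 11. The median log2 fold change was -0.67 over the integrin subunits and -0.30 over all entries of the cluster. The laminin-binding Itga6 was the only one higher, beside collagen-binding and RGD-binding subunits that were lower. At 3.0% outside the cluster, Itga6 was below the 10.1% that the larger detection of every entry reached. It could therefore be listed only where it was found in more cells, so its direction was set by that minimum. The contrast also rests on 1 laminin-binding gene, since Itga3 and Itga7 had no entry. No test of this difference could be made without replicates.

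Cluster 4 listed 6 of the 7 members, where 53.1% of all genes have an entry, and 1 of the 6 was higher, against 26.3% of all its entries. Its 6 integrin entries were all found in fewer cells inside the cluster, as were 97.9% of all entries of cluster 4, so the lower detection of integrins was that of nearly every gene listed there. The median detection over all entries of cluster 4 was 10.8% inside against 63.0% outside, and of cluster 10 it was 8.1% against 62.3%. The part of these low detections in the integrin values of clusters 4 and 10 was not tested. Without these 2 clusters, 11 integrin entries were higher and 16 lower.

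By the log2 fold change, genes for proteins that sit with integrins at adhesion sites were mostly higher where Itgb1 was higher and lower where it was lower. Of 38 genes listed for the adhesion complex (talins, kindlins, filamins, actinins, tetraspanins and others), 27 had an entry. In cluster 0, where Itgb1 was highest, 22 had an entry and 22 were higher, against 70.0% of all entries of cluster 0, with a median log2 fold change of 0.54 against 0.31 for all entries. The largest was Actn1, an actin cross-linker, at 0.97, followed by Flna, a filamin that binds beta tails, at 0.76 and Vcl, or vinculin, at 0.76. Talin, Tln1, was at 0.67 and found in 94.4% of the cells against 71.2%. In clusters 1, 5 and 9, the others with higher Itgb1, 11 of 11, 17 of 18 and 13 of 13 adhesion complex genes were higher, against 61.7%, 72.9% and 77.8% of all entries.

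In cluster 11, 25 adhesion complex genes had an entry and 0 were higher, with a median of -0.68 against -0.30 for all entries. The lowest were Cd63, a tetraspanin, at -2.26, Actn1 at -1.64 and Flna at -1.48. In cluster 8, which is led by Gsn and Peg3, 0 of 16 were higher, against 32.8% of all entries there. In cluster 2 the count was 1 of 18, against 31.3%, and in cluster 6 it was 1 of 20, against 49.9%. The exception in both was Cd47, an integrin-associated membrane protein, at 0.47 and 0.27. In cluster 4, 0 of 26 were higher, against 26.3%. These counts are by the log2 fold change, and detection pointed the other way for some of the genes. In cluster 6, Tln1 was found in 81.0% of cells against 74.0% outside, and Actn1 in 51.6% against 64.1%. In cluster 11, Vcl was found in 83.1% against 59.8%, and Actn1 in 21.8% against 63.8%. The list was also mostly higher in the clusters that do not list Itgb1. In clusters 3 and 7, 3 of 5 and 7 of 7 were higher, against 57.8% and 70.0% of all entries. In cluster 10 it was 6 of 8, against 241 of all 718 entries, although 99.9% of its entries were found in fewer cells inside.

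**Figure D4:**
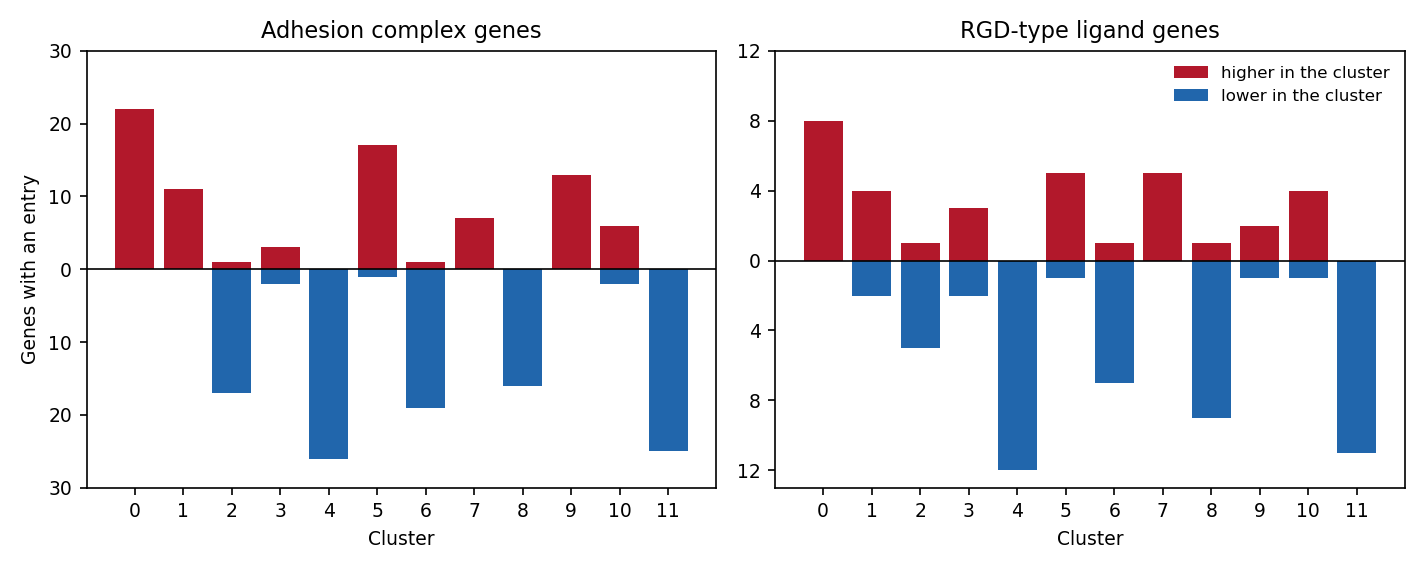
Number of adhesion complex genes (left) and RGD-type ligand genes (right) listed in each cluster, drawn upwards where higher and downwards where lower by the authors' log2 fold change. In cluster 0, 22 and 8 genes are higher and 0 are lower, and in cluster 11, 25 and 11 are lower and 0 are higher. Of all entries, 70.0% are higher in cluster 0 and 40.2% in cluster 11.

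Ligands were counted by the kind of receptor that holds them. Of 16 genes for RGD-type and related matricellular ligands, 12 had an entry. In cluster 0, 8 of 8 were higher, against 70.0% of all entries there. They were led by Thbs1, or thrombospondin, at 1.71, Ccn2 at 1.32 and Postn, or periostin, at 0.64. In cluster 11, 0 of 11 were higher, against 40.2% of all entries there, with a median of -2.06 against -0.30. Thbs1 stood at -3.49, Spp1, or osteopontin, at -2.99 and Fn1, or fibronectin, at -2.88. Fn1 was still detected in 80.9% of cluster 11, with 94.3% outside.

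All 10 collagen genes on the list had entries, and the direction of the list varied between clusters. In cluster 11, 1 of 8 was higher, against 40.2% of all entries there. It was Col6a3, a microfibrillar collagen, at 0.45, named after its value had been seen. The lowest were the fibrillar collagens Col1a2 at -4.35, Col1a1 at -4.09 and Col3a1 at -3.01. In cluster 0, 3 of 6 were higher, against 70.0% of all entries there. The largest in absolute size were Col4a1, a basement membrane collagen, at -0.95, Col3a1 at -0.68 and Col4a2 at -0.44. By detection these 3 pointed the other way, at 94.9% against 92.0%, 99.7% against 98.4% and 90.8% against 86.1%. The 3 higher ones were Col1a1 at 0.36, Col1a2 at 0.35 and Col5a2 at 0.36, all fibrillar. By the fold change the list was thus split where the adhesion complex list was higher throughout.

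Of 11 laminin genes, 4 had an entry. In cluster 11, where Itga6 was listed, Lamb1, a laminin beta chain, was higher, at 0.34 with detection in 96.0% of the cells against 66.3%. Lamb2 was lower, at -0.69 with 12.6% against 47.0%. Lamb1 was also higher in cluster 8, at 1.28, and Lamc1, a laminin gamma chain, was higher there at 0.86. The third laminin gene listed in cluster 8, Lamb2, was lower at -0.45, with detection in 24.9% against 47.8%. Cluster 8 lists no laminin-binding subunit among the members. Laminin genes were also higher in other clusters without Itga6. In clusters 2, 6 and 4, 2 of 2, 2 of 2 and 2 of 3 were higher, against 31.3%, 49.9% and 26.3% of all entries. The 2 higher ones of cluster 4, Lamb1 and Lama4, were found in fewer cells there. Their detection was 27.1% against 71.0% and 21.1% against 61.6%, so it pointed the other way. In cluster 1 it was 1 of 2, against 61.7%. In clusters 0, 5 and 9 it was 0 of 1, 0 of 3 and 0 of 2, against 70.0%, 72.9% and 77.8%. In cluster 10 it was 0 of 3, against 241 of 718.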

How the data were processed

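Libraries were made with droplet capture and 3′ chemistry. Per the labels and the study's methods, reads were mapped to mm10 with Cell Ranger 6.0.0 and the captures aggregated after read-depth equalization. In Seurat the authors then filtered and log-normalized the cells, took out immune, glial and endothelial cells, clustered the rest at a resolution of 0.6 and ran MAST for each cluster. No doublet removal is described, and none was possible here.

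The authors deposited 1 table with 13337 entries. Its detection values are deposited as a fraction of cells inside and outside the cluster, printed here as percents. The deposited log2 fold changes are the authors' own comparison, printed as theirs. The smallest fold change in absolute size is 0.25, and the larger detection of an entry is at least 10.1%. The deposited p-value of each entry treats cells as replicates, so none is printed, and the adjusted one only selected entries in 1 alternative. Columns of per-sample values left unused numbered 0.

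Python 3.11.15, numpy 2.4.6, pandas 2.3.3 and matplotlib 3.10.9 were used. Cluster shares were solved by least squares from the 10 genes listed in every cluster, leaving out 35 entries whose symbol is a date, and were checked on simulated data. A gene's detection over all cells then follows from any cluster, and for the members it differed by at most 0.088 percentage points between clusters. Means in clusters without an entry follow from what the listed clusters leave. Coordinates are from GENCODE vM21 (GRCm38). Members and lists were chosen with earlier results of these data known. All members are named, with the 3 genes of each list that had the largest absolute log2 fold change in clusters 0 and 11. Tln1, Cd47, the higher collagens of cluster 0 and the laminins of cluster 8 were named after their values had been seen. For members listed in at least 6 clusters, the 3 most similar genes are named. Clusters are called by number with their 2 leading genes by log2 fold change.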

Additional observations from a re-analysis of the deposited data

How the results depend on the processing

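No paired analysis was possible because all cells are pooled in each value. The counts of 13 higher and 22 lower integrin entries became 3 and 10 when a log2 fold change of 0.5 or more in either direction was asked for, and 0 and 4 with 1 or more, by construction. Among the 22 entries with an adjusted p below 0.05, 6 were higher and 16 lower, and all 7 members kept at least 1 entry. Direction taken from detection gave 14 and 21, and 5 entries turned (14.3% of the entries, against 18.1% in the whole table), Itgb1 in clusters 2, 6 and 11, Itga5 in cluster 4 and Itga11 in cluster 10. Leaving out clusters 4 and 10, added after the data had been seen, gave 11 and 16. With direction from detection, also added after the data had been seen, the shared clusters in which Itgb1 and Itgb5 pointed the same way went from 6 to 3, and those of Itgb1 and Itga5 from 1 to 3.

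The cluster with the highest value was the same in 11 of 21 comparisons. Some of these were fixed in advance. Itga6 has 1 entry, so its cluster could not change. Leaving out clusters 4 and 10 could move only genes that were highest in 1 of them. By detection inside the cluster, Itgb1 moved from 0 to 5, Itga5 from 2 to 6 and Itgb5 from 7 to 0, the last also by the difference of detection. Itga11 moved from 10 to 6 and Itgav from 4 to 8 under all 3 alternatives, and both were found in fewer cells inside than outside in every listed cluster. The cause was not tested. None of the 21 other values of detection over all cells, from other shares or single clusters, moved by more than 0.2 percentage points. The effect of depth could not be measured.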

Other observations

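Of 26 integrin subunit genes looked up, 10 had an entry, and 3 of these are not among the members. Itga2, a collagen-binding subunit, and Itga8, an RGD-binding one, were listed as higher in cluster 7 alone, which is led by Ogn and Hp. Itga2 was found in 17.3% of its cells against 2.2% of the others, with a log2 fold change of 0.30 by the authors' table. Itga8 was found in 15.3% against 3.6%, with 0.25. Itga9, which pairs with Itgb1, was listed as higher in cluster 1 alone, with detection in 31.8% against 9.8% and a log2 fold change of 0.30. At 2.2%, 3.6% and 9.8% outside, Itga2, Itga8 and Itga9 were below the 10.1% that the larger detection of every entry reached. The direction of these 3 entries by detection was therefore set by that minimum, as for Itga6. No beta subunit other than Itgb1 and Itgb5 had an entry.

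The genes nearest to a member were found by the root mean square difference of the log2 fold changes over the clusters of that member. For Itgb1, 80 genes were listed in the same 9 clusters, and the nearest were Flna (0.11), Msn (0.13) and Fhl2 (0.16), against a median of 0.43. Flna encodes a filamin and Msn encodes moesin, which both tie membrane proteins to actin, and Fhl2 encodes a LIM protein. Flna ran from 0.76 in cluster 0 to -1.48 in cluster 11, where Itgb1 ran from 0.71 to -1.50. For Itgb5, 39 genes were listed in its 8 clusters, and the nearest were Eva1b (0.17), Ube2r2 (0.17) and Gabarap (0.20), against a median of 0.67. For Itga5, 79 genes were listed in its 6 clusters, and only Errfi1 (0.22), a feedback inhibitor of EGF receptor signalling, was near, followed by Sdc4 (0.45), a syndecan that works with integrins at fibronectin, and Ybx1 (0.58), against a median of 1.15. Errfi1 stood at 0.95 in cluster 2 and -1.03 in cluster 11. These are descriptions over 6 to 9 clusters of the same pooled cells.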
